A study of Mus musculus with 4 samples.

Results

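The Notch pathway of dermal blood vascular endothelial cells (BECs) was described through 10 genes of the mouse ear: the receptors *Notch1* and *Notch4*, the ligands *Dll1*, *Dll4*, *Jag1* and *Jag2*, the target genes *Hey1*, *Hey2* and *Hes1*, and *Rbpj*, which encodes the DNA-binding protein of the pathway. The genes are a named list that no threshold on values defines, drawn up with earlier results of these data known, and all 10 had a row among the 46517 genes counted. Cells gated as CD31-positive, CD45-negative and Lyve1-negative came from ears of untreated adult female C57Bl/6 mice, 12 to 26 weeks old per the labels. The study's methods state wild-type mice and another age range. For Smart-seq2, a plate-based method without molecular identifiers, 1 cell was sorted into each well. The 4 plates of 384 wells form 2 replicates of plates A and B, each described as a pool of cells from 6 mice, and the sources do not say whether the mice differed between the pools, so p-values measure only the spread between these samples. Plates of a replicate share that pool, and wells of a plate are not replicates.

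BECs were kept by reads of the endothelial genes *Kdr*, *Cdh5* and *Pecam1* and by less than 100 CPM (the reads of a gene per 1000000 reads on genes in its well) of each of 5 genes of lymphatic, blood or mural cells. This left 338 of 768 wells in replicate 1 and 363 of 768 in replicate 2, with a median of 142614.5 and 92974 reads. Wells were clustered without the 10 genes, 47 other Notch pathway genes and the genes induced by dissociation, and clusters were named from listed arterial, capillary and venous markers. Artery-like wells numbered 16 in replicate 1 and 26 in replicate 2, capillary-like wells 127 and 39, and vein-like wells 43 and 53, while 152 and 245 wells stayed unnamed. The artery-like cluster was higher for 10 of 12 arterial markers and the capillary-like cluster for 10 of 10 capillary markers. The summed arterial markers stood at 8862 and 7895 CPM in artery-like and 4789 and 3952 CPM in capillary-like wells of replicates 1 and 2. In unnamed cluster 3 they stood at 6004 and 5254 CPM. The summed capillary markers stood at 18090 and 6050 CPM in capillary-like, 9570 and 2199 CPM in artery-like and 6569 and 3101 CPM in vein-like wells. The vein-like class joined 2 clusters, of which cluster 6 was higher for 7 and cluster 9 for 4 of 10 venous markers. The summed level of 6 pan-endothelial markers, which include the 3 of the filter, lay between 4996 and 8242 CPM in every class and replicate, and that of 6 haematopoietic markers between 0.0 and 23.1 CPM. The sum of 8 fibroblast markers was 779.7 and 451.7 CPM in capillary-like wells of replicates 1 and 2, against 126.4 and 78.9 CPM in artery-like and 126.1 and 68.2 CPM in vein-like wells. That of 3 keratinocyte markers was 192.1 CPM in artery-like wells of replicate 1 and at most 18.7 CPM in the other groups, that of 4 Schwann cell markers 73.5 CPM in vein-like wells of replicate 2 and at most 4.87 CPM in the others, and that of 7 lymphatic markers 22.0 to 353.0 CPM, highest in capillary-like wells of replicate 2. Their part in the levels below was not tested. Artery-like wells of replicate 1 are few, with 4 on plate A and 12 on plate B, and no well name occurred on more than 1 plate.

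Notch receptors sit on the cell surface and are activated by Delta-like and Jagged ligands on a neighbouring cell. Cleavage then frees the intracellular domain of the receptor, which enters the nucleus, binds RBPJ and turns on target genes, among them transcriptional repressors of the Hes and Hey families. In blood vessels the pathway is known for its part in arterial identity and in the choice between tip and stalk cells during sprouting.

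The 250 bases before the annotated start are shown for *Dll4* and *Dll1*, ligands whose levels had a different order across the classes, and for *Rbpj*, whose window holds the RBPJ core motif (RefSeq, GRCm38.p6). The windows lie at chr2:119325534-119325783 on the plus strand (*Dll4*), chr17:15376933-15377182 on the minus strand (*Dll1*, the farther upstream of 2 listed starts) and chr5:53590096-53590345 on the plus strand (*Rbpj*, the first of 2 listed starts). Each is written 5′ to 3′ in the direction of its gene, and capitals mark motif matches on either strand.
Dll4: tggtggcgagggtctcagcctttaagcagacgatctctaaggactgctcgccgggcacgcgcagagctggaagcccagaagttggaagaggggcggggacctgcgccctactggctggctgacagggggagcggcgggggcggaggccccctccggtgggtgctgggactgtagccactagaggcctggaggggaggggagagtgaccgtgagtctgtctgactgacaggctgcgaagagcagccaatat
Dll1: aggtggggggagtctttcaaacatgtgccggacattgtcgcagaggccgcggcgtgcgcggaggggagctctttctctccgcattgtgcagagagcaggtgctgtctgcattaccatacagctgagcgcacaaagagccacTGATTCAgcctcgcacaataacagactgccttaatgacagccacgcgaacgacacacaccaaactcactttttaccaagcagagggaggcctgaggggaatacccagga
Rbpj: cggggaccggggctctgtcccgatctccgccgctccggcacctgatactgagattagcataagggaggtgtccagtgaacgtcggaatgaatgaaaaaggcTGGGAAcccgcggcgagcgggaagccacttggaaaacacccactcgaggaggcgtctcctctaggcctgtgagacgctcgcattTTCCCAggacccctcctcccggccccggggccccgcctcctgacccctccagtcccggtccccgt
The motifs searched on both strands were TGGGAA (the RBPJ core), TGANTCA (AP-1) and CACGTG (an E-box). In the windows shown, *Rbpj* held 2 matches of the RBPJ core, beginning 149 and 65 bases before the start, *Dll1* held 1 match of AP-1 beginning 109 bases before the start, and *Dll4* held no match of the 3 motifs. The RBPJ core occurred in 21.6%, AP-1 in 6.75% and the E-box in 6.02% of all 32851 promoter windows of this length, and capitals of different motifs did not overlap in these windows. Of the windows not shown, that of *Hey2* held 1 match of the RBPJ core. The window of the second *Rbpj* start, which overlaps the one shown, also held 1. Both *Rbpj* windows lie within the gene as counted (53466152 to 53657362). *Hey1* and *Hes1* were not among the sequences used.

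*Hey1*, a Hey family repressor and Notch target, had its highest level in artery-like wells and its lowest in vein-like wells, in both replicates and on all 4 plates. *Dll4*, the main Delta-like ligand of arterial and sprouting endothelium, was highest in artery-like wells in both replicates, but not on plate B of replicate 2. *Dll1*, another Delta-like ligand, was highest in vein-like wells in both replicates and on all 4 plates. *Jag1*, *Jag2* and *Rbpj* were also highest in artery-like wells in both replicates. Thus 5 of 10 genes had this order of means per well, and no gene was highest in capillary-like wells in both replicates. How many of all genes had the same order was not counted, so 5 of 10 has no share over all genes to stand beside. These orders are descriptions: 0 of the 9 genes tested, all but *Hey2*, passed edgeR's quasi-likelihood test with Benjamini-Hochberg adjustment over the 14042 genes tested.

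**Figure D1:**
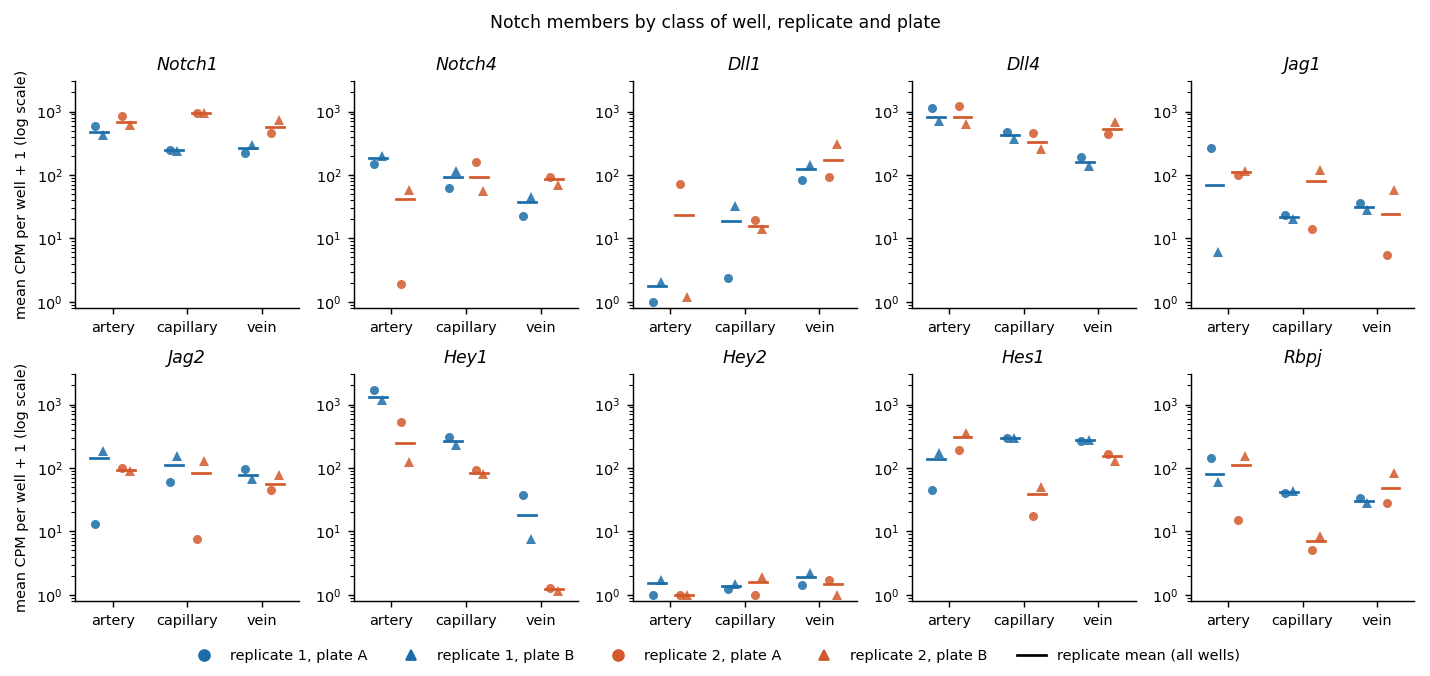
Level of each of the 10 genes as mean CPM per well plus 1 on a log axis, by class of well, with a point for each plate (circles plate A, triangles plate B, blue replicate 1, orange replicate 2) and a line for the mean over all wells of a replicate. *Hey1* steps down from artery-like to vein-like wells in both replicates, *Dll1* is highest in vein-like wells, and *Hey2* stays near 0 in all classes.

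*Hey1* (chromosome 3, 8663359 to 8667256 on the minus strand, mm10, GENCODE vM21) was graded over the 3 classes. In artery-like wells the mean level was 1713 CPM (plate A) and 1200 CPM (plate B) in replicate 1, and 531.9 CPM (plate A) and 121.7 CPM (plate B) in replicate 2. In capillary-like wells the 4 plates stood at 306.3, 226.2, 90.3 and 78.4 CPM, and in vein-like wells at 36.5, 6.53, 0.294 and 0.146 CPM. The classes did not overlap within a replicate, but artery-like wells of replicate 2 and capillary-like wells of replicate 1 did, and every class was lower in replicate 2. Over replicates the mean was 788.1 ± 763.9 CPM in artery-like, 172.7 ± 127.4 CPM in capillary-like and 8.62 ± 11.85 CPM in vein-like wells (SD, n = 2). Fitted log2 fold changes were 4.31 ± 0.79 (SE) for artery-like wells against the other classes and -6.73 ± 1.17 for vein-like wells, with adjusted p-values of 0.178 and 0.138 by edgeR. Replicate 1 alone gave 4.48 and replicate 2 alone 5.47 for artery-like wells, and -5.26 and -9.91 for vein-like wells. In normalized sums over wells artery-like wells stood at 1444 and 235 CPM in replicates 1 and 2. Capillary-like wells stood at 275 and 143 CPM, and vein-like wells at 16.6 and 0.169 CPM. The artery-like value averages the contrasts with both classes, so the low vein-like sums make it larger than the gap to capillary-like wells. That gap was narrower in replicate 2, where the fitted value was the larger one. In replicate 2 only 2 reads of *Hey1* fell on vein-like wells, against 1104 on artery-like wells, so the fitted value there depends on the prior count. The ratio of artery-like to vein-like summed CPM was 77.1 in replicate 1 (exact 95% counting interval 66.0 to 90.5) and 1253 in replicate 2 (345.9 to 10360), where intervals cover counting error only.

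Shares of wells with a read of *Hey1* followed the same order. After thinning to 20000 reads per well, 13 of 16 artery-like wells of replicate 1 (81.2%, exact 95% binomial interval 54.4 to 96.0%) and 9 of 24 of replicate 2 (37.5%, 18.8 to 59.4%) held a read. In capillary-like wells the shares were 31.5% and 18.5%. In vein-like wells 7 of 43 wells of replicate 1 held a read (16.3%, 6.8 to 30.7%), and 0 of 52 did in replicate 2, where a floor of 3 wells allows up to 5.77% and the exact interval reaches 6.85%. Without thinning the shares of replicate 1 were 87.5%, 66.1% and 65.1% in artery-like, capillary-like and vein-like wells, so that capillary-like and vein-like wells were nearly level there, and those of replicate 2 were 50.0%, 20.5% and 3.77%. Even in artery-like wells the reads were uneven, since 3 wells held 49.6% of the summed level in replicate 1 and 71.1% in replicate 2.

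The adjusted p-value of *Hey1* depended on the processing more than its direction did. It passed for both artery-like and vein-like wells under 5 of 11 other settings: DESeq2's Wald test, no filter on low counts, sums per plate, wells thinned to 20000 reads, and the stricter limit of 10 CPM on non-BEC genes, which leaves 1 artery-like well in replicate 1. Its sign was the same under all 11, with log2 fold changes of 2.18 to 5.74 for artery-like and -9.28 to -3.3 for vein-like wells. Plates of a pool are not independent replicates, so the sums per plate understate the error.

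*Dll4* (chromosome 2, 119325784 to 119335962 on the plus strand) had a mean level of 807.3 CPM in artery-like wells of replicate 1 and 822.9 CPM in those of replicate 2. In capillary-like wells it stood at 420.0 and 330.2 CPM, and in vein-like wells at 157.7 and 532.7 CPM. On the 4 plates the artery-like levels were 1133, 698.6, 1226 and 643.6 CPM. On plate B of replicate 2 vein-like wells were higher than artery-like wells, at 690.5 CPM. In normalized sums over wells artery-like wells stood apart, with 928 and 1026 CPM against 148 to 531 CPM in the other classes, which overlapped each other. The fitted log2 fold change for artery-like wells was 1.39 ± 0.39 (edgeR adjusted p = 0.593, unadjusted p = 0.00621), and it was 1.91 in replicate 1 alone and 0.95 in replicate 2 alone. Under the other settings it ranged from 0.25 to 1.54 and passed only without a filter on low counts (adjusted p = 0.049). *Dll4* shares 214 of its 3852 exonic bases with *Gm14207* on the opposite strand, and since the protocol keeps no strand, reads within that stretch cannot be told apart.

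Detection of *Dll4* separated the classes less than its level. After thinning, a read was found in 56.2% and 50.0% in artery-like, 59.8% and 44.4% in capillary-like and 44.2% and 34.6% in vein-like wells of replicates 1 and 2, with overlapping intervals. The highest well stood at 5779 CPM in artery-like and at 5741 CPM in vein-like wells of replicate 2, while the medians over wells there were 13.9 and 5.46 CPM.

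Levels of *Dll4* differed within the vein-like class. In cluster 6, led by *Sele* and *Selp*, which encode leukocyte adhesion molecules, the mean was 136.5 CPM in replicate 1 and 836.6 CPM in replicate 2. In cluster 9, with 7 and 21 wells, it was 266.7 and 69.5 CPM. The order of both clusters was thus opposite in the 2 replicates. Without cluster 9 in the vein-like class, a choice made after its levels were seen, the log2 fold change of *Dll4* for artery-like wells was 1.28.

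Unnamed wells of cluster 5, led by *Arc*, *Snai1*, *Rgs16* and *Ccn1*, genes of rapid responses to stimulation, had *Dll4* at 823.4 and 689.0 CPM in 63 and 11 wells. *Hes1* was higher there than in any of the 3 classes, at 500.1 and 356.9 CPM, and *Hey1* stood at 117.0 and 0.578 CPM. Within the vein-like class *Hes1* was at 296.8 and 219.6 CPM in cluster 6 and at 163.5 and 50.6 CPM in cluster 9, the same order in both replicates. The summed level of 24 genes induced by dissociation, among them *Fos*, *Jun* and *Egr1*, was 38980 and 39510 CPM in these wells and 31340 and 38900 CPM in vein-like cluster 6. In vein-like cluster 9 that sum was 11860 and 3026 CPM, in artery-like wells 15770 and 28030 CPM, and in capillary-like wells 14810 and 8042 CPM. Its part in the levels of *Dll4* and *Hes1* was not tested.

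**Figure D2:**
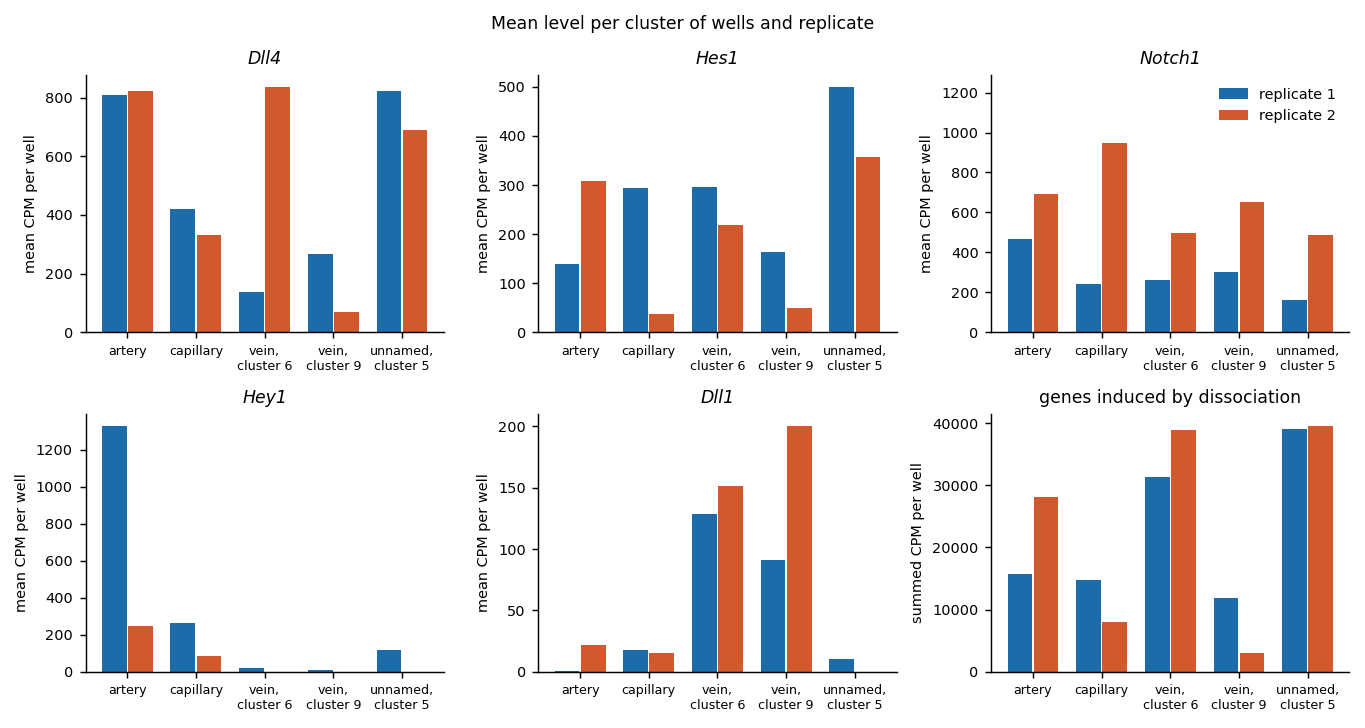
Mean level per well (CPM, linear axes from 0) of *Dll4*, *Hes1*, *Notch1*, *Hey1* and *Dll1*, and the summed level of the genes induced by dissociation, in artery-like and capillary-like wells, both vein-like clusters and unnamed cluster 5, with a bar for each replicate. *Dll4* and *Hes1* were high in cluster 5, where the dissociation genes reached 38980 and 39510 CPM, whereas *Hey1* was highest in artery-like wells.

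*Dll1* (chromosome 17, 15367354 to 15376872 on the minus strand) was the ligand with its highest level in vein-like wells. Its mean level was 122.7 and 170.9 CPM in vein-like wells of replicates 1 and 2, against 17.6 and 14.9 CPM in capillary-like and 0.806 and 22.0 CPM in artery-like wells. The vein-like plates stood at 82.2, 144.3, 92.1 and 311.9 CPM, and no plate of another class reached them, the highest being artery-like plate A of replicate 2 at 71.1 CPM. In vein-like wells 3 wells held 39.6% of the summed level in replicate 1 and 60.2% in replicate 2, where 1 well stood at 3746 CPM. Both vein-like clusters held it, cluster 6 at 128.9 and 151.7 CPM and cluster 9 at 90.7 and 200.2 CPM. The fitted log2 fold change for vein-like wells was 3.63 ± 1.07 (edgeR adjusted p = 0.635, unadjusted p = 0.00844), with 4.66 in replicate 1 alone and 3.72 in replicate 2 alone. Across the other settings it was 2.48 to 6.33 and passed under DESeq2's Wald test (adjusted p = 0.0235) and without a filter on low counts (adjusted p = 0.0442). For artery-like wells the log2 fold change was -1.98 ± 1.34 (adjusted p = 0.694).

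Few wells carried *Dll1*. After thinning, 15 of 43 vein-like wells of replicate 1 (34.9%, 21.0 to 50.9%) and 12 of 52 of replicate 2 (23.1%, 12.5 to 36.8%) held a read, against 3.94% and 3.7% of capillary-like wells. No artery-like well of replicate 1 held one, 0 of 16, where the floor of 3 wells allows up to 18.8% and the exact interval reaches 20.6%, and 2 of 24 did in replicate 2. The gene shares 867 of its 4219 exonic bases with *A930024N18Rik* on the opposite strand, and reads within that stretch cannot be told apart.

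The Jagged ligands had levels that overlapped between the classes on single plates. *Jag1*, the ligand that endothelium also presents to mural cells, had 69.0 and 108.4 CPM in artery-like, 20.55 and 80.7 CPM in capillary-like and 29.85 and 23.4 CPM in vein-like wells. Its artery-like plates of replicate 1 stood at 260.6 and 5.1 CPM, so that the class overlapped both others. *Jag2* had 142.3 and 92.7 CPM in artery-like, 111.8 and 83.7 CPM in capillary-like and 75.9 and 55.4 CPM in vein-like wells. The log2 fold changes for artery-like wells were 1.09 ± 0.97 for *Jag1* (adjusted p = 0.786) and 0.32 ± 0.66 for *Jag2* (adjusted p = 0.938). *Jag2* turned in sign to -0.51 in replicate 2 alone, since in normalized sums of that replicate artery-like wells were its lowest class, at 77.0 CPM against 141.5 CPM in capillary-like and 81.4 CPM in vein-like wells. Both artery-like levels were carried by few wells, with 3 wells holding 99.2% and 94.2% of that of *Jag1* and 77.3% and 68.15% of that of *Jag2*. In unnamed cluster 5 *Jag1* was at 25.2 and 0.0 CPM.

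**Figure D3:**
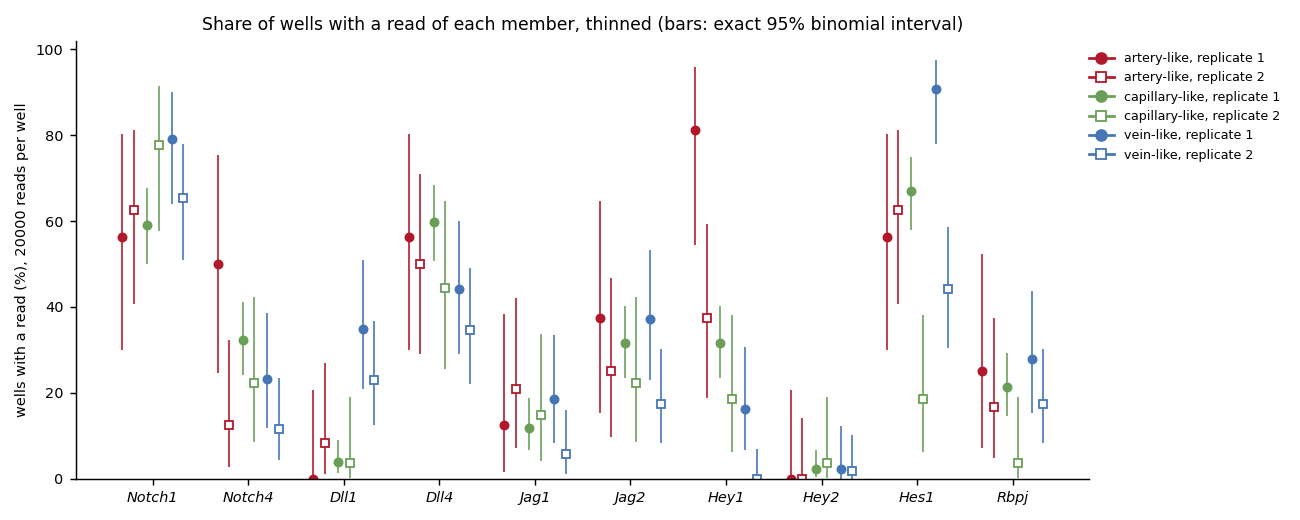
Share of wells with at least 1 read of each gene (percent) after thinning each well to 20000 reads, by class (red artery-like, green capillary-like, blue vein-like) and replicate (filled circles 1, open squares 2), with exact 95% binomial intervals. *Hey1* runs from 81.2% and 37.5% in artery-like to 16.3% and 0.0% in vein-like wells and *Dll1* lies at 34.9% and 23.1% in vein-like wells, and many intervals overlap, such as those of *Dll1* across the classes in replicate 2. The intervals cover counting error over wells, which are not replicates.

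Of the receptors, *Notch1* was read in most wells of every class. Its mean level was 467.9 and 692.5 CPM in artery-like, 243.1 and 945.1 CPM in capillary-like and 268.9 and 559.7 CPM in vein-like wells of replicates 1 and 2. Each class was higher in replicate 2, and the order of the classes differed between the replicates, with artery-like wells highest in replicate 1 and capillary-like wells in replicate 2. Thinned shares ranged from 56.2% to 79.1% over the classes and replicates. The log2 fold change for artery-like wells was 0.37 ± 0.42 (adjusted p = 0.852), at 0.98 in replicate 1 alone and -0.13 in replicate 2 alone. *Notch1* shares 1482 exonic bases with *0610009E02Rik* and *Gm13568* on the opposite strand, and reads there cannot be assigned to either strand.

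*Notch4*, a receptor found mainly in endothelium, had 185.3 and 40.3 CPM in artery-like, 90.5 and 91.7 CPM in capillary-like and 36.5 and 84.5 CPM in vein-like wells. Artery-like wells thus had its highest level in replicate 1 and its lowest in replicate 2, where plate A held 0.915 CPM and plate B 57.8 CPM. The log2 fold change for artery-like wells was 1.14 ± 0.82 (adjusted p = 0.712), at 2.42 and -0.65 in the replicates alone. Per kilobase of exon and averaged over replicates, *Notch1* stood at 40.8 and *Notch4* at 14.0 CPM in artery-like wells, at 41.7 and 11.3 CPM in capillary-like wells and at 29.1 and 7.5 CPM in vein-like wells.

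On the same scale per kilobase, *Dll4* had the highest mean of the ligands in every class, at 211.6 CPM in artery-like, 97.4 CPM in capillary-like and 89.6 CPM in vein-like wells. *Jag2* and *Jag1* followed in artery-like and capillary-like wells, at 16.9 and 15.2 CPM and at 14.0 and 8.69 CPM, and *Dll1* was second in vein-like wells at 34.8 CPM. The values are means of 2 replicates, and neighbours such as *Jag1* and *Jag2* in artery-like wells or *Dll4* and *Dll1* in vein-like wells did not differ beyond the spread of the replicates.

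*Hes1*, a Hes family repressor that responds to Notch and to other signals, did not share the order of *Hey1*. Its mean level was 138.6 and 308.2 CPM in artery-like, 294.6 and 37.6 CPM in capillary-like and 275.1 and 152.6 CPM in vein-like wells. Capillary-like wells were the highest class in replicate 1 and the lowest in replicate 2. Detection was most frequent in vein-like wells of replicate 1 at 90.7% (77.9 to 97.4%) and least frequent in capillary-like wells of replicate 2 at 18.5% (6.3 to 38.1%). The log2 fold change for artery-like wells was 0.60 ± 0.78 (adjusted p = 0.875), at -1.03 in replicate 1 alone and 1.9 in replicate 2 alone.

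*Hes1* moved with the genes induced by dissociation across wells. Within each class and replicate, the Spearman correlation of its CPM with the sum of these genes (23, without *Ccn1*) lay between 0.217 and 0.353, over 16 to 127 wells that share their plates and depths. Wells above the median of that sum held 372.6 CPM of *Hes1* against 217.8 CPM below it in capillary-like wells of replicate 1, and 238.9 against 69.5 CPM in vein-like wells of replicate 2. *Dll4* showed 1019 against 64.0 CPM in vein-like wells of replicate 2 (rho = 0.404, 53 wells), and 193.2 against 123.8 CPM in those of replicate 1 (rho = 0.233, 43 wells), while its rho was 0.021 and 0.124 in artery-like and 0.033 and 0.026 in capillary-like wells. Its means above and below the median were 899.7 against 714.8 CPM and 1305 against 340.3 CPM in artery-like wells of replicates 1 and 2, and 467.6 against 373.1 CPM and 571.9 against 100.5 CPM in capillary-like wells, so means and ranks differed in how far they moved. For *Hey1* the correlation was 0.358 in capillary-like wells of replicate 2 and between -0.062 and 0.143 in the other groups with over 2 reads. Its means above and below the median were 1441 against 1216 CPM and 434.9 against 61.0 CPM in artery-like wells, 173.7 against 350.5 CPM and 164.5 against 5.0 CPM in capillary-like wells, and 7.43 against 26.1 CPM in vein-like wells of replicate 1, higher with the dissociation genes in 3 of these 5 groups. *Jag2* stood at 245.7 against 39.0 CPM in artery-like wells of replicate 1 (rho = 0.416) and at 160.3 against 10.8 CPM in capillary-like wells of replicate 2 (rho = 0.318), with rho between -0.188 and 0.161 in the other 4 groups, and over all kept wells at 142.0 against 66.3 CPM and 98.0 against 38.3 CPM in replicates 1 and 2. In capillary-like wells of replicate 2 *Notch4* stood at 146.1 against 40.0 CPM (rho = 0.387) and *Notch1* at 1243 against 661.8 CPM (rho = 0.303). In those of replicate 1 they stood at 71.8 against 108.9 CPM and 237.6 against 248.6 CPM. *Rbpj* went the other way in artery-like wells of replicate 2, at 0.745 against 223.4 CPM (rho = -0.197). The part of dissociation in these levels was not tested.

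*Hey2*, a Hey family repressor, was close to absent. In all kept wells 88 reads in 19 wells were counted, its level was at most 0.94 CPM in any class and replicate, and it did not reach the minimum for testing. In the wells set aside as mural, with at least 300 CPM of *Pdgfrb* or *Kcnj8* and less than 100 CPM of *Pecam1*, *Hey2* stood at 45.9 and 103.5 CPM over 8 and 38 wells.

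*Rbpj* had 80.7 and 112.1 CPM in artery-like, 40.65 and 6.17 CPM in capillary-like and 28.85 and 46.9 CPM in vein-like wells. The artery-like plates stood at 144.6 and 59.4 CPM in replicate 1 and at 13.9 and 155.7 CPM in replicate 2. On plate A of replicate 2 vein-like wells were higher, at 26.8 CPM. For *Rbpj* the log2 fold change for artery-like wells was 2.43 ± 1.21 (edgeR adjusted p = 0.65), with 1.31 in replicate 1 alone and 4.11 in replicate 2 alone. The level rested on few wells, since 3 wells held 95.2% and 98.4% of it in artery-like wells, and the shares of wells with a read, 25% and 16.7%, lay within the intervals of vein-like wells, 27.9% and 17.3%. The processed copies *Rbpj-ps1* and *Rbpj-ps3* held 0 reads and 1 read, and reads that match both *Rbpj* and a copy were not measured.

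**Figure D4:**
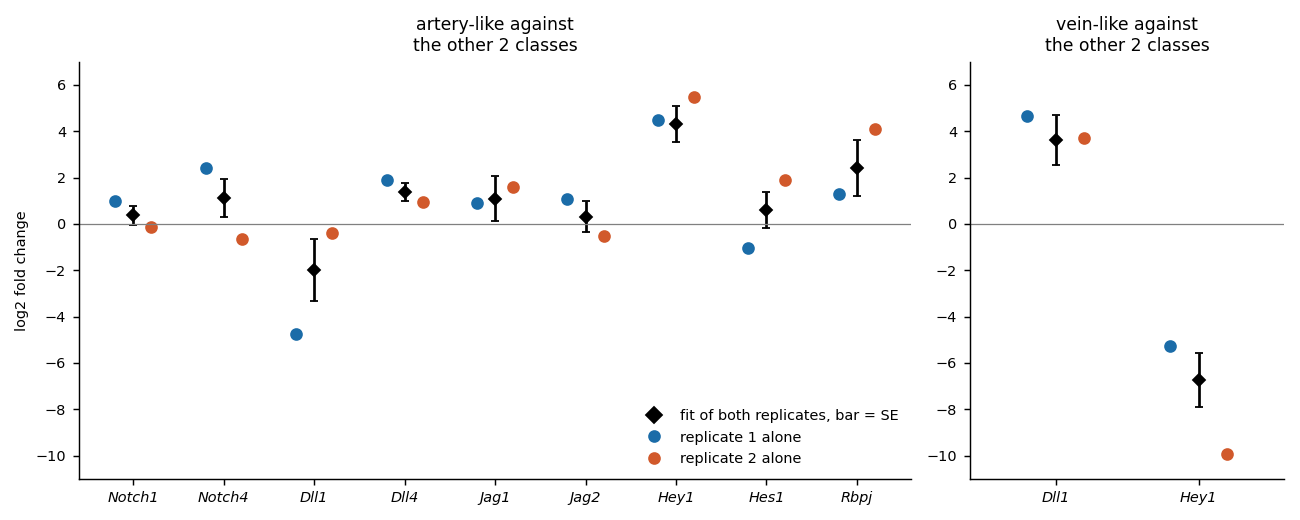
Log2 fold change of the 9 genes tested for artery-like wells (left) and of *Dll1* and *Hey1* for vein-like wells (right) against the mean of the other classes, with the edgeR fit of both replicates and its SE (black) and each replicate alone (blue 1, orange 2). Both replicates lie on the same side of 0 for *Dll1*, *Dll4*, *Jag1*, *Hey1* and *Rbpj*, and on opposite sides for *Notch1*, *Notch4*, *Jag2* and *Hes1*.

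Across all genes tested, 0.0855% passed for artery-like wells, 0.057% for vein-like wells and 0.0% for capillary-like wells by edgeR at an adjusted p of 0.05, and 0 of the 9 genes tested here passed in any comparison. At an unadjusted p of 0.05, 2 of the 9 passed for artery-like wells (*Dll4* and *Hey1*), beside 7.36% of all genes, 1 for capillary-like wells (*Hey1*), beside 4.6%, and 3 for vein-like wells (*Dll1*, *Dll4* and *Hey1*), beside 6.62%. DESeq2's Wald test passed 1 of 9 for artery-like wells (*Hey1*), beside 5.79% of all genes, 2 for vein-like wells (*Dll1* and *Hey1*), beside 2.69%, and 0 for capillary-like wells, beside 1.41%. Levels in both sums of artery-like wells were above the other 4 sums for 2 of 9 (*Dll4* and *Rbpj*), beside 7.44% of all genes, and below them for 0 of 9, beside 13.4%. For vein-like wells 1 of 9 was above (*Dll1*), beside 8.78%, and 2 of 9 were below (*Hey1* and *Notch4*), beside 4.44%. *Notch4* fell in that count on summed reads only, since its mean per well in replicate 2 was higher in vein-like than in artery-like wells. For capillary-like wells the counts were 0 above and 0 below, beside 6.32% and 4.81%. The median log2 fold change of the 9 genes was 1.09 for artery-like wells, against -0.27 over all genes tested. Above 0 were 8 of the 9, beside 6006 of 14042 genes. For vein-like wells the median was -0.91 against 0.26, with 7 of the 9 below 0, beside 5690 of 14042. For capillary-like wells it was 0.0 against 0.14, with 5 of the 9 above 0, beside 7682 of 14042. The 3 comparisons share the same 6 sums, so these shifts are not separate results.

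Receptors, ligands and targets were read together in part of the wells, and in sparse counts weak co-occurrence is no finding. After thinning, *Notch1* and *Dll4* were both read in 37.5% and 29.2% of artery-like, 38.6% and 44.4% of capillary-like and 32.6% and 23.1% of vein-like wells of replicates 1 and 2. Of 45 pairs, 3 had a larger share of wells with the second gene among wells with the first than among wells without it in all 6 groups of class and replicate, and these were *Notch4* with *Dll4*, *Notch1* with *Notch4* and *Dll4* with *Jag1*. *Dll4* was read in 87.5% of artery-like wells with *Notch4* and 25% of those without it in replicate 1, and in 66.7% and 47.6% in replicate 2. In capillary-like wells the values were 68.3% against 55.8% and 66.7% against 38.1%, and in vein-like wells 60.0% against 39.4% and 50.0% against 32.6%. The groups with *Notch4* hold 3 to 41 wells each, and none of the 3 pairs kept this order in all 6 groups without thinning or with at least 2 reads. At the limit of 10 CPM artery-like wells of replicate 1 come to 1 well, so the order in all 6 groups could not be read there.

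The ligands *Dll1* and *Dll4* were both read in 6 of 43 vein-like wells of replicate 1 and 2 of 52 of replicate 2, where *Dll1* alone was read in 9 and 10 wells and *Dll4* alone in 13 and 16. The share of *Dll4* among wells with *Dll1* was 40.0% and 16.7%, against 46.4% and 40.0% among wells without it. *Hey1* was read in 40.8% and 33.3% of capillary-like wells with *Dll4*, against 17.6% and 6.67% of those without it, but in artery-like wells the shares were 77.8% and 33.3% against 85.7% and 41.7%.

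Other genes of the pathway were taken from a list of 47, of which 39 could be tested, and 0 passed edgeR's test in any comparison. At an unadjusted p of 0.05, 4 of the 39 passed for artery-like, 2 for capillary-like and 1 for vein-like wells, beside the 7.36%, 4.6% and 6.62% of all genes. Of the 39, 12 had a log2 fold change above 0 for artery-like wells (median -0.38) and 28 for vein-like wells (median 0.44), beside 6006 of 14042 (median -0.27) and 8352 of 14042 (median 0.26) over all genes. *Notch2*, a receptor of many tissues, was at 0.0 CPM in artery-like wells of both replicates and at most 1.705 CPM in the other classes. *Nrarp*, a Notch target that dampens the signal, had 36.6 and 28.3 CPM in artery-like, 85.0 and 82.7 CPM in capillary-like and 44.4 and 52.9 CPM in vein-like wells, with an artery-like log2 fold change of -0.80 ± 0.90 (adjusted p = 0.844).

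*Notch3*, the receptor of mural cells, and *Heyl*, a Hey family target known from mural cells, were low in kept wells. *Notch3* had 20.1 and 2.69 CPM in artery-like, 29.6 and 0.563 CPM in capillary-like and 24.4 and 11.9 CPM in vein-like wells, against 1146 and 874.1 CPM in mural wells. *Heyl* was at most 9.6 CPM in any class and replicate and at 975.2 and 236.5 CPM in mural wells. Conversely, *Notch4* was at 0.755 and 0.492 CPM and *Hey1* at 4.74 and 2.0 CPM in mural wells, which were chosen for low *Pecam1*, an endothelial gene. *Hes1*, at 514.3 and 381.1 CPM, and *Jag1*, at 250.5 and 94.8 CPM, were well read there, whereas *Dll4* differed between the replicates at 264.0 and 3.71 CPM. The summed level of 10 mural markers was 1037 and 402 CPM in artery-like, 1557 and 393.8 CPM in capillary-like and 1280 and 341.3 CPM in vein-like wells, and its part in the levels of *Notch3* was not tested.

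Genes with a pattern most like that of 6 of the 10 genes were sought over 12 sums of plate and class, among 7586 genes with a mean of at least 20 CPM, as Pearson's r of log2(CPM + 1). The sums share plates and pools and the r values are descriptions. For *Hey1* they were *Magix* (0.94), *Il10rb* (0.931) and *Unc5b* (0.924), a netrin receptor of arteries, and for *Dll4* they were *Cthrc1* (0.934), *Gm14207* (0.883), which is the transcript overlapping it on the opposite strand, and *Cndp2* (0.847). For *Notch1* they were *Gm37376* (0.929), *Malat1* (0.905), a nuclear non-coding RNA, and *mt-Cytb* (0.891), a mitochondrial gene. For *Notch4* they were *Sema6d* (0.92), *Rad54l* (0.919) and *H1f0* (0.91), for *Jag1* they were *Phf3* (0.888), *Ube2b* (0.812) and *Snrpb2* (0.811), and for *Hes1* they were *Eny2* (0.964), *Pih1d1* (0.955) and *Spg21* (0.95). *Magix*, *Il10rb*, *Cndp2* and *H1f0* were among the genes that set the clusters.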

How the data were processed

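Per the labels, ear skin was digested with Collagenase IV and cells were sorted into 384-well plates for Smart-seq2. Per the submitters' processing notes and methods, the authors aligned 50-base single reads to mm10 (GRCm38) with TopHat2 2.1.1, removed duplicates, used SAMtools 0.1.18 and Subread 1.4.6-p5, and deposited raw counts per gene and well, without strand. The plates held 31864976 to 74739095 reads on genes. Spike-ins were left out, and 46005 gene IDs matched a GENCODE vM21 symbol.

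Kept wells had at least 600 reads, 500 to 8000 genes, reads of 2 or more of the genes *Kdr*, *Cdh5* and *Pecam1*, and less than 100 CPM each of *Kcnj8*, *Pdgfrb*, *Ptprc*, *Prox1* and *Lyve1*. A limit of 10 CPM leaves 18 wells in replicate 1. No doublet caller was run. In each replicate 1000 variable genes (scran 1.30.0) without Notch pathway and dissociation genes were scaled, and 15 principal components and 15 neighbours were clustered (leidenalg 0.10.2, resolution 1.0). A class needed at least 3 of its markers 1.25 times higher in both replicates and 1 among its 10 leading genes. The members, lists and limits were chosen with earlier results of these data known, and the naming rule after trial clusterings in which levels of the members had been seen. Levels come from the wells that formed the classes.

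Counts were summed per class and replicate, and genes reaching 10 counts in 2 or more of the 6 sums were tested with edgeR 4.0.16 (quasi-likelihood, TMM, replicate as block because its classes come from 1 pool, 2 residual degrees of freedom), contrasting a class with the average of the remaining classes. Sums of the same replicate deviated together with correlations of 0.0769, 0.0962 and 0.1008. Fits of 1 replicate used a dispersion set at 0.1 and give values with no test. On simulated data for the artery-like comparison over 14042 genes, 30% of 200 genes changed by 8-fold were recovered at the estimated spread and 100% at a dispersion of 0.1. Alternatives were DESeq2 1.42.0, no filter, no block, sums per plate, thinning, the 10 CPM limit, other resolutions, marker scores and left-out replicates. By the naming rule, fitted changes are given for all tested genes of the set in artery-like wells, and elsewhere for those past the threshold or moving the same way by at least 1 log2 unit in both replicates. Of the other pathway genes, *Notch2*, *Notch3*, *Heyl* and *Nrarp* were named in any case.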

Additional observations from a re-analysis of the deposited data

Results flagged for a closer look

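Among 30 sets of 4 plate levels, 4 held a plate far from the other 3 by Dixon's criterion, which chance gives in about 1 in 20 sets. *Dll1* in artery-like wells stood at 71.1 CPM on plate A of replicate 2. *Jag1* in capillary-like wells stood at 118.5 CPM on plate B of replicate 2. *Rbpj* in vein-like wells stood at 82.9 CPM on plate B of replicate 2. *Hey2* in artery-like wells stood at 0.729 CPM on plate B of replicate 1, beside 0.0 CPM on the other plates. That value came from 1 read in 1 well. With 0.0 CPM on the other plates any read would have been flagged, so this set does not bear on the rate given by chance.

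In the mural wells, which entered no comparison, *Hey2* was found in 12.5% of the 8 wells from replicate 1, and in 28.95% of the 38 wells from replicate 2.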

How the results depend on the processing

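Of the log2 fold changes, 111 values under other settings had the same direction and side of the threshold, 13 newly passed it, 7 reversed, and 12 untested values of 1 replicate alone moved by more than the SE. Genes called numbered 12 for artery-like, 0 for capillary-like and 8 for vein-like wells. DESeq2's Wald test called 813, 198 and 378, no filter on low counts 130, 70 and 144, sums per plate 48, 4 and 58, and thinned wells 44, 10 and 49. For artery-like wells the 10 CPM limit called 5, the next higher resolution 4 and marker scores 0, and, chosen after seeing the data, the next lower resolution called 0 and leaving out vein-like cluster 9 called 5. The fit with no replicate block called 8 for artery-like wells, and no call on the 9 genes tested here depended on the block. Of the 10 genes, 5 were highest in artery-like wells in both replicates, against 2 at the 10 CPM limit, 3 on plate A, 2 on plate B, 4 in CPM of summed counts (without *Jag2*), 7 with classes from marker scores (with *Notch1*, *Hey2* and *Hes1*, without *Rbpj*), and 6 to 7 with 1 replicate left out. For shares of wells with a read 2 genes had this order, and 4 with at least 2 reads. How many of all genes had this order was not counted under any setting. The 3 pairs read together in all groups became 0 without thinning, 0 with at least 2 reads and 0 at the 10 CPM limit, where 1 artery-like well of replicate 1 leaves no comparison and the count is void. For artery-like wells, *Notch1* reversed to -0.13 without replicate 1 (0.98 without replicate 2), *Notch4* to -0.65 (2.42) and *Jag2* to -0.51 (1.08), and *Hes1* to -1.03 without replicate 2 (1.9 without replicate 1) and -0.08 at the next lower resolution, and *Dll1* to 0.59 and *Jag2* to -2.19 at the 10 CPM limit. The cause was not tested. Artery-like wells of the main classes were few, 16 and 26 in replicates 1 and 2, a limit on every artery-like value whether or not it reversed.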
